A study of Mus musculus with 11 samples.

Results

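The liver tumour and oncofetal markers described here are 10 genes (Afp, Golm1, Igf2bp3, Tspan8, Epcam, Cd24a, Cd44, Robo1, Akr1b8 and Anxa5) out of 30142 genes with a row of their own in a mouse hepatocyte array table. The genes were chosen by name, with earlier results of these data known. Their counts beside the shares over all genes are therefore a description and not an independent test. A row counted as a gene's own where the platform annotation gives that gene alone, and each of the 10 genes had exactly 1 such row and 0 rows shared with another gene.

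RNA came from hepatocytes of 12-week-old male mice and was measured on 11 whole-transcript arrays. In double KO (n = 3) Nemo was deleted in the liver only, written NemoLPC-KO in the labels, and CXCR6 was knocked out as well. In Nemo KO (n = 3) the liver-specific Nemo deletion stood alone, in Cxcr6 KO (n = 3) the CXCR6 knockout stood alone, and wildtype (n = 2) had neither. The source names place double KO and Cxcr6 KO in 1 mouse line, with and without Cre, and Nemo KO and wildtype in another, again with and without Cre. Each Nemo comparison therefore stays inside 1 line. Cxcr6 status cannot be told apart from mouse line. The labels name no Cre driver and limit the deletion of Nemo, but not that of Cxcr6, to the liver. The replicates are called biological without a statement that each is a separate mouse, so p-values measure the spread between these samples.

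Nemo, encoded by Ikbkg, is needed by the IKK kinases to switch on NF-kB. Mouse livers whose hepatocytes lack Nemo show ongoing cell death, inflammation and, with age, tumours. Cxcr6 is a chemokine receptor of T and NKT cells. Oncofetal genes are active in the embryonic liver, fall silent after birth and can return in regenerating or malignant liver, with Afp the classic example. The other markers include surface proteins of bile duct, progenitor or blood cells and proteins that adult hepatocytes make in small amounts, so that in bulk RNA from isolated hepatocytes a higher signal can come from the hepatocytes or from other cells. More cells of a type and more RNA per cell cannot be told apart in such samples.

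Values are deposited log2 signals, on which a difference of 1 is a doubling. Array medians lay between 5.19 and 5.38, arrays have no read depth, and their number limits the precision. Alb, the main plasma protein of hepatocytes, lay between 19.82 and 19.93 on all 11 arrays, at or near the highest value in the table (19.93), so that its row cannot show differences between arrays. The 2 wildtype arrays differed most from each other (r = 0.984 over all rows, against 0.990 to 0.995 for other pairs of a group), and Mki67, a proliferation marker, had a log2 signal of 5.35 in wildtype replicate 1 and 11.18 in replicate 2. Neither target row fell with its genotype: Ikbkg lay between 8.76 and 9.49 and Cxcr6 between 4.94 and 5.56 on all arrays. Whether these probes lie in the deleted parts is not known, so the rows do not check the labels.

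All 10 markers had their highest group mean in double KO and their second highest in Nemo KO. This order of means held for 10.5% of the 18337 genes tested. In double KO against Cxcr6 KO, 9 of the 10 were higher by limma's moderated test (adjusted p under 0.05 over all genes), by 1.8-fold for Cd44 up to 4.73-fold for Anxa5, and 0 were lower. Over all genes tested, 7.41% were called in that comparison, 3.44% higher and 3.96% lower. In Nemo KO against wildtype 0 of the 10 were called, where only 0.158% of all genes were, and all 10 had a higher mean. Afp had the smallest difference of the 10 in double KO against Cxcr6 KO and was not called.

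**Figure D1:**
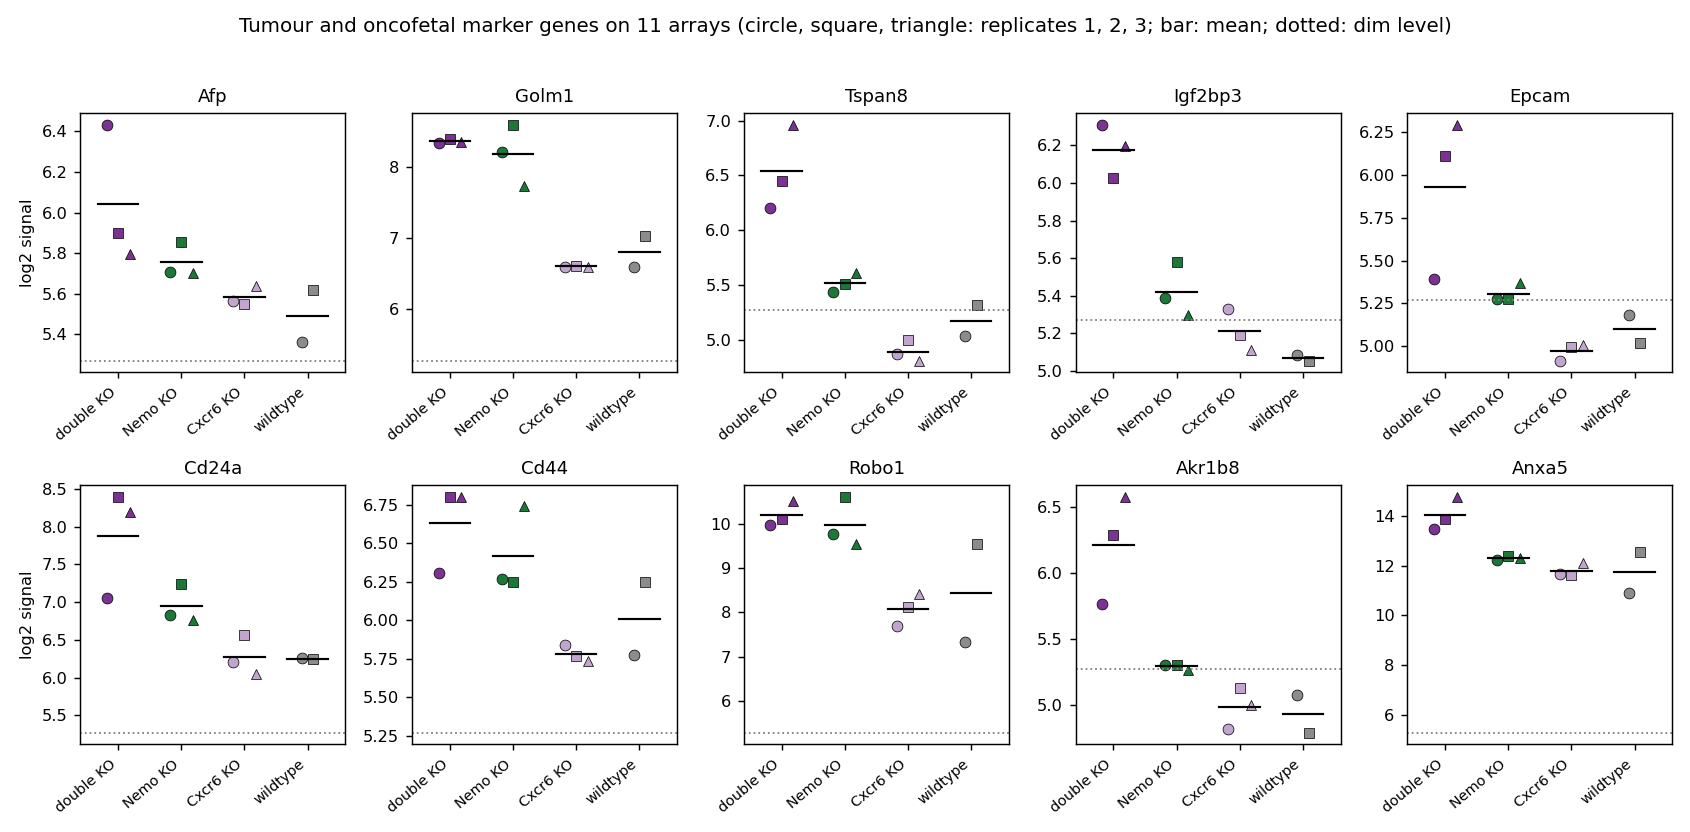
Log2 signal of each gene on each array (vertical axis, a separate scale per gene) for double KO, Nemo KO, Cxcr6 KO and wildtype. Symbols mark replicates 1, 2 and 3, bars are group means, and the dotted line is the level of 5.27 that the highest group mean had to reach for a test. The double KO mean is the highest for all 10 genes, and for Tspan8, Igf2bp3, Epcam and Akr1b8 both groups without Nemo deletion have means under the dotted line.

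Genes entered the test when at least 1 group averaged 5.27 or more, the midpoint of mean signals in the table, and all 10 genes did. Afp, Golm1, Cd24a, Cd44, Robo1 and Anxa5 exceeded that level in all 4 groups. Tspan8, Igf2bp3, Epcam and Akr1b8 exceeded it only in double KO and Nemo KO, so these 4 passed through the groups in which they are high. Their calls, orders of means and separations of arrays are therefore no support for a count, here or below. Of the other 6, all but Afp were called higher in double KO against Cxcr6 KO. Near this level a fold is a ratio of signals and understates the ratio of RNA amounts.

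The promoter windows of 4 genes are shown because these genes mark the extremes of the data: Golm1, Tspan8 and Igf2bp3 were called in double KO against Cxcr6 KO under each of 19 other settings, whereas Afp was called under 1 of them. Each runs from 250 bases before to 50 after the RefSeq start, on build GRCm38.p6, read 5′ to 3′ on the gene's strand. Capitals mark matches, on either strand, to a TATA box (TATAAA), an HNF1 half-site (GTTAAT), a C/EBP motif (TTGCNNAA), an E-box (CACGTG) or an AP-1 site (TGANTCA), and the NF-kB consensus was searched too. No capitals of different motifs overlap.
Afp, chr5:90490464-90490763, plus strand: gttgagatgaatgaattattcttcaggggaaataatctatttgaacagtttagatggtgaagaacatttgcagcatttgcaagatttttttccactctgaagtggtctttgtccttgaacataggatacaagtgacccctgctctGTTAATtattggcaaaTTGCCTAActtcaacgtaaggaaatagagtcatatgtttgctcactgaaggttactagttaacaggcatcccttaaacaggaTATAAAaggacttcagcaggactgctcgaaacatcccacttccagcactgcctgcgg
Golm1, chr13:59675735-59676034, minus strand: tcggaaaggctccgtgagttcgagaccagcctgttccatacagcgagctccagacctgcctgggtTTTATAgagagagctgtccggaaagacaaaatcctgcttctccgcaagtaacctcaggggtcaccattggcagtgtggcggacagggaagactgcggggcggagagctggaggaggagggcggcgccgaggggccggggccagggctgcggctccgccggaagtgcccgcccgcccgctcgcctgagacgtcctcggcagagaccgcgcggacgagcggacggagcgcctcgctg
Tspan8, chr10:115817034-115817333, plus strand: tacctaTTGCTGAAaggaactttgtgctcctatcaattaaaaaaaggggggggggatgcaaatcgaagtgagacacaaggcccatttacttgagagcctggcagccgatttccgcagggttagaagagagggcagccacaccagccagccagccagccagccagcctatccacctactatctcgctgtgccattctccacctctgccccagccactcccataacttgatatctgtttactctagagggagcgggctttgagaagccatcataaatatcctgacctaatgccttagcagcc
Igf2bp3, chr6:49214905-49215204, minus strand: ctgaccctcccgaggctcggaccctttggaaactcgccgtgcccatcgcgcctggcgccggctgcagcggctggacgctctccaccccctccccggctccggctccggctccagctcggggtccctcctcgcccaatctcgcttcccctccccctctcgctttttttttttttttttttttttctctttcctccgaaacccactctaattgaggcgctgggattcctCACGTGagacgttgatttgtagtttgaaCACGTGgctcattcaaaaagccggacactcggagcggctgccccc
The Afp window is AT-rich (40% G and C, 3 CpG) and holds a TATAAA match 7 bases before the RefSeq start. It also holds a C/EBP match at -89 and an HNF1 half-site match at -105, letters of the kinds of element known to drive liver-specific genes. The Golm1 window is rich in CpG (67.0% G and C, 30 CpG), as is that of Igf2bp3 (60.3%, 25 CpG), which holds E-boxes at -23 and 6. The median over 32851 windows was 52.7% with 7 CpG.

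Windows were found for 9 of the 10 genes, all but Cd24a. An AP-1 site was in 0 of the 9 and in 7.81% of all windows, and the NF-kB consensus in 0 of the 9 and in 4.51% of all windows. The letters TATAAA were in 3 of the 9 (Afp, Golm1 and Akr1b8) against 13.6% of all windows. For Golm1 (-185) and Akr1b8 (-159) they lay on the opposite strand, far from the place of a working TATA box. Counted from the RefSeq start, the Afp match (-7) also lay outside that place. An HNF1 half-site was in 3 (Afp, Robo1 and Akr1b8) against 7.1%, a C/EBP motif in 2 (Afp and Tspan8) against 10.8%, and an E-box in 2 (Igf2bp3 and Epcam) against 7.15%. A match describes letters in the window and is not evidence of binding.

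Among the secreted markers, Afp encodes alpha-fetoprotein, the plasma protein of the fetal liver. Its log2 signal was 6.43, 5.90 and 5.80 in double KO and 5.71, 5.85 and 5.70 in Nemo KO, against 5.56, 5.55 and 5.64 in Cxcr6 KO and 5.36 and 5.62 in wildtype. All 6 arrays with Nemo deletion lay above the 5 without, by a narrow margin, and double KO replicate 1 stood highest. The difference was 0.46 ± 0.16 (SE, adjusted p = 0.0951) in double KO against Cxcr6 KO, which passed 5% with array weights (0.45, adjusted p = 0.0275), and 0.26 ± 0.17 (adjusted p = 0.392) in Nemo KO against wildtype. Averaged over both, the Nemo effect was 0.36 ± 0.12 (adjusted p = 0.0576), and it passed 5% without double KO replicate 1 (0.26, adjusted p = 0.0412), without double KO replicate 3 (0.42, adjusted p = 0.045) and without wildtype replicate 2 (0.43, adjusted p = 0.0476).

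Golm1 encodes a Golgi membrane protein that is shed into blood and is used as a serum marker of liver disease. Its signal was 8.34, 8.40 and 8.35 in double KO and 8.21, 8.59 and 7.73 in Nemo KO, against 6.6, 6.6 and 6.59 in Cxcr6 KO and 6.59 and 7.02 in wildtype. Nemo-deleted and Nemo-intact arrays did not overlap, and the gap between them was the widest among the 10 genes. Golm1 rose 3.40-fold in double KO against Cxcr6 KO (1.77 ± 0.19, adjusted p = 0.00593). Its difference in Nemo KO against wildtype was 1.37 ± 0.22 (2.59-fold, adjusted p = 0.0553), and it was 1.59 without wildtype replicate 2. It passed 5% without Nemo KO replicate 3 (1.60, adjusted p = 0.0202) and after median centring of the arrays (1.29, adjusted p = 0.0374). With only these 2 groups fitted the adjusted p was 0.319. Double KO and Nemo KO overlapped, with a difference of 0.19 ± 0.19 (adjusted p = 0.642) that was -0.04 without Nemo KO replicate 3.

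Igf2bp3 encodes an RNA-binding protein of embryonic tissue that stabilises growth-promoting mRNAs. It had 6.31, 6.03 and 6.20 in double KO and 5.39, 5.58 and 5.30 in Nemo KO, against 5.33, 5.19 and 5.11 in Cxcr6 KO and 5.09 and 5.06 in wildtype. Double KO stood clear of every other array, whereas Nemo KO overlapped Cxcr6 KO. Igf2bp3 rose by 0.97 ± 0.11 in double KO against Cxcr6 KO (1.95-fold, adjusted p = 0.00593). Against Nemo KO, double KO was 1.69-fold higher (0.76 ± 0.11, adjusted p = 0.0291), while Nemo KO exceeded wildtype by 0.35 ± 0.12 (adjusted p = 0.118).

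Tspan8 encodes a tetraspanin of epithelial and tumour cell membranes. It had 6.20, 6.45 and 6.96 in double KO and 5.44, 5.51 and 5.61 in Nemo KO, against 4.87, 5.0 and 4.81 in Cxcr6 KO and 5.04 and 5.32 in wildtype. The 4 groups did not overlap in any pair, in the order double KO, Nemo KO, wildtype, Cxcr6 KO. Tspan8 rose 3.13-fold in double KO against Cxcr6 KO (1.64 ± 0.17, adjusted p = 0.00593) and 2.03-fold in double KO against Nemo KO (1.02 ± 0.17, adjusted p = 0.0487). The steps from wildtype to either single KO were not called: Nemo KO differed from wildtype by 0.34 ± 0.20 (adjusted p = 0.318) and Cxcr6 KO from wildtype by -0.28 ± 0.20 (adjusted p = 0.668).

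Epcam and Cd24a are surface proteins of bile duct and progenitor cells in the liver. Epcam had 5.39, 6.11 and 6.29 in double KO and 5.28, 5.28 and 5.37 in Nemo KO, against 4.92, 4.99 and 5.01 in Cxcr6 KO and 5.18 and 5.02 in wildtype. Cd24a had 7.06, 8.39 and 8.19 in double KO and 6.83, 7.24 and 6.77 in Nemo KO, against 6.20, 6.56 and 6.05 in Cxcr6 KO and 6.26 and 6.25 in wildtype. For both genes double KO replicate 1 lay at or near the Nemo KO level, and replicates 2 and 3 well above it. In double KO against Cxcr6 KO, Epcam rose 1.94-fold (0.96 ± 0.20, adjusted p = 0.0257) and Cd24a 3.05-fold (1.61 ± 0.31, adjusted p = 0.0231). Both calls were lost without double KO replicate 2 or 3 and without any single Cxcr6 KO array. Against Nemo KO the differences were 0.62 ± 0.20 (adjusted p = 0.177) for Epcam and 0.94 ± 0.31 (adjusted p = 0.204) for Cd24a, and both passed without double KO replicate 1 (0.89 and 1.35, adjusted p = 0.0113 and 0.0288).

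Cd44 encodes the hyaluronan receptor, carried by leukocytes and by some tumour cells. It had 6.30, 6.80 and 6.80 in double KO and 6.27, 6.25 and 6.75 in Nemo KO, against 5.84, 5.77 and 5.74 in Cxcr6 KO and 5.77 and 6.25 in wildtype. Wildtype replicate 2 had the same value as the lowest Nemo KO array. Cd44 rose 1.8-fold in double KO against Cxcr6 KO (0.85 ± 0.19, adjusted p = 0.033). This call was lost without double KO replicate 2 or 3, any single Cxcr6 KO array or Nemo KO replicate 1. The difference in Nemo KO against wildtype was 0.41 ± 0.21 (adjusted p = 0.266). Double KO and Nemo KO overlapped.

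Robo1 encodes a receptor for Slit guidance proteins. It had 9.99, 10.11 and 10.52 in double KO and 9.79, 10.62 and 9.55 in Nemo KO, against 7.70, 8.12 and 8.43 in Cxcr6 KO and 7.33 and 9.56 in wildtype. Wildtype replicate 2 thus lay at the level of the Nemo-deleted arrays and replicate 1 below all others. Robo1 rose 4.36-fold in double KO against Cxcr6 KO (2.13 ± 0.51, adjusted p = 0.0419). The call was kept in 11 of 19 other settings, and was lost without the filter on dim rows (adjusted p = 0.0653), without Nemo KO replicate 1 (adjusted p = 0.0644) and without any 1 of the double KO or Cxcr6 KO arrays (adjusted p = 0.063 to 0.13). In Nemo KO against wildtype its difference was 1.55 ± 0.57 (adjusted p = 0.141), which became 2.66 (adjusted p = 0.0125) without wildtype replicate 2 and 0.43 without replicate 1.

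Akr1b8 encodes an aldo-keto reductase that detoxifies reactive aldehydes. It had 5.77, 6.29 and 6.58 in double KO and 5.31, 5.31 and 5.27 in Nemo KO, against 4.82, 5.13 and 5.0 in Cxcr6 KO and 5.08 and 4.79 in wildtype. Both Nemo-deleted groups lay above both others, and double KO lay above Nemo KO without overlap. Akr1b8 rose 2.35-fold in double KO against Cxcr6 KO (1.23 ± 0.19, adjusted p = 0.0129), a call lost without Cxcr6 KO replicate 3 (adjusted p = 0.056). Its difference in double KO against Nemo KO was 0.92 ± 0.19 (adjusted p = 0.0691), which passed without double KO replicate 1 (1.14, adjusted p = 0.0149) and after median centring of the arrays (1.04, adjusted p = 0.0488). Nemo KO against wildtype gave 0.36 ± 0.21 (adjusted p = 0.324).

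Anxa5 encodes annexin A5, which binds phosphatidylserine exposed on dying cells. It had 13.49, 13.86 and 14.77 in double KO and 12.21, 12.41 and 12.32 in Nemo KO, against 11.67, 11.60 and 12.12 in Cxcr6 KO and 10.89 and 12.56 in wildtype. Double KO stood apart from all other arrays, while wildtype replicate 2 exceeded every Nemo KO array. Anxa5 rose 4.73-fold in double KO against Cxcr6 KO (2.24 ± 0.43, adjusted p = 0.022). The call was lost without double KO replicate 2 or 3 and without any single Cxcr6 KO array. Against Nemo KO the difference was 1.73 ± 0.43 (adjusted p = 0.118), and it passed without either wildtype replicate (adjusted p = 0.046 each, through the shared variance estimate). Nemo KO against wildtype gave 0.59 ± 0.48 (adjusted p = 0.49), which was -0.25 without wildtype replicate 1.

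Setting double KO against Cxcr6 KO asked what Nemo deletion did where Cxcr6 was already absent. All 10 genes were higher on every double KO array than on any Cxcr6 KO array, which held for 13.3% of all genes tested, while 24.4% were lower on every array. Tspan8, Igf2bp3, Epcam and Akr1b8 passed the level for a test only through the Nemo-deleted groups. The median difference of the 10 was 1.42, against -0.06 over all genes. The count of 9 called genes fell to 4 without double KO replicate 2 or 3 or without Cxcr6 KO replicate 1 or 2, and to 3 without Cxcr6 KO replicate 3, as the calls over all genes also fell, to between 116 and 533, against 1358 with all arrays. Golm1, Tspan8 and Igf2bp3 were called in each of these fits.

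**Figure D2:**
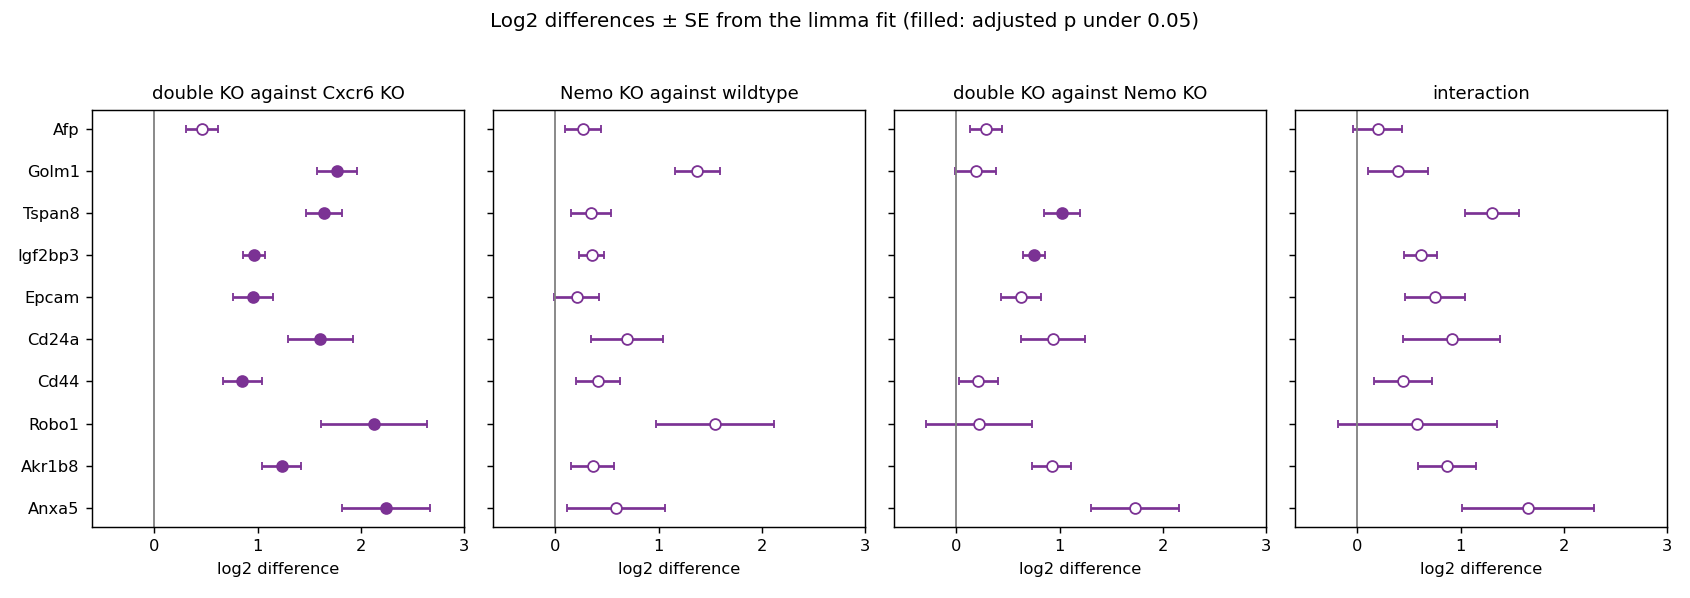
Log2 differences with standard errors from the limma fit (horizontal axis) for the 10 genes in 4 panels: double KO against Cxcr6 KO, then Nemo KO against wildtype, then double KO against Nemo KO, then the interaction. Filled points have an adjusted p under 0.05: 9 genes in the first panel, 0 in the second, 2 in the third and 0 in the fourth.

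Nemo deletion where Cxcr6 was intact was tested as Nemo KO against wildtype. Of the 10 genes, 0 passed 5% in limma (0.0491% of all genes were called higher) and 3 had an unadjusted p under 0.05 (24.6% of all genes did), namely Golm1, Igf2bp3 and Robo1. The median difference was 0.39, against -0.04 over all genes, and 7 genes (all but Cd44, Robo1 and Anxa5) were higher on every Nemo KO array than on both wildtype arrays, which held for 11.3% of all genes. Of these, Tspan8, Igf2bp3, Epcam and Akr1b8 passed the level for a test only through the Nemo-deleted groups. Without wildtype replicate 2, Golm1 and Robo1 were called, and calls over all genes numbered 2369 in place of 29.

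The average of the Nemo effects in both Cxcr6 states drew on all 11 arrays. By this test 9 of the 10 were higher (of all genes 20.3% were called, 4.84% higher and 15.4% lower), with Afp again under the line. Of the 6 genes over the level for a test in all groups, 5 were called. The 9 ran from 0.58 ± 0.15 for Epcam (1.5-fold, adjusted p = 0.0255) to 1.84 ± 0.38 for Robo1 (3.57-fold, adjusted p = 0.0155). Golm1 had the smallest p of the 10 (1.57 ± 0.15, adjusted p = 0.00337). It ranked 8th of the 18337 genes by p. Epcam was not called without double KO replicate 2 (adjusted p = 0.0579) or Cxcr6 KO replicate 2 or 3 (adjusted p = 0.0552 and 0.0565). Of the 10 genes, 6 (Afp, Golm1, Tspan8, Epcam, Cd24a and Akr1b8) were higher on all 6 Nemo-deleted arrays than on all 5 Nemo-intact arrays, which held for 2.03% of all genes. Of these, Tspan8, Epcam and Akr1b8 passed the level for a test only through the Nemo-deleted groups. Without wildtype replicate 1 the count was 6, with Epcam (adjusted p = 0.0645), Cd44 (adjusted p = 0.0705) and Anxa5 (adjusted p = 0.0535) no longer called.

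Where Nemo was deleted, double KO was set against Nemo KO, a contrast of Cxcr6 status together with line. Igf2bp3 and Tspan8 rose (0.365% of all genes were called higher). Both are among the 4 genes that passed the level for a test only through the Nemo-deleted groups, and of the 6 genes over that level in all groups 0 were called. All 10 differences were above 0, and their median was 0.69 against 0.04 over all genes. Tspan8, Igf2bp3, Epcam, Akr1b8 and Anxa5 were higher on every double KO array than on every Nemo KO array, which held for 12.9% of all genes, while 9.94% were lower on every array. Among them only Anxa5 exceeded the level for a test in all groups, so the others are no support for a count. Golm1, Cd44 and Robo1 overlapped and differed by 0.19 ± 0.19, 0.21 ± 0.19 and 0.22 ± 0.51. The 2 calls were not steady: 0 of the 10 were called without double KO replicate 3, Cxcr6 KO replicate 2 or 3, or Nemo KO replicate 1 or 3, and 1 without double KO replicate 2, Cxcr6 KO replicate 1 or Nemo KO replicate 2. Without double KO replicate 1 the count was 4 (Tspan8, Epcam, Cd24a and Akr1b8), and without either wildtype replicate it was 3, with Anxa5 added. Neither gene was called when only these 2 groups were fitted (adjusted p = 0.152 for Tspan8 and 0.112 for Igf2bp3) or with the replicate block (adjusted p = 0.0585 and 0.0512), and Tspan8 was not called without the filter on dim rows (adjusted p = 0.0633). Median centring of the arrays shifted the median of all genes to 0.16.

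Cxcr6 KO against wildtype, the same contrast with Nemo intact, gave 0 calls among the 10 by limma and 0 at an unadjusted p under 0.05. Of all genes 0.256% were called, 0.175% higher and 0.0818% lower. Igf2bp3 was higher on every Cxcr6 KO array than on both wildtype arrays (12.7% of all genes were), and Tspan8 and Epcam were lower on every one (11.2% of all genes were). The 10 differences ran from -0.36 ± 0.57 for Robo1 to 0.14 ± 0.12 for Igf2bp3, 5 above 0 and 5 below. Their signs were not fixed: Robo1 was 0.76 higher without wildtype replicate 2.

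The interaction tested whether the Nemo effect was larger without Cxcr6 than with it. It was above 0 for all 10 genes, but 0 passed 5% in limma, as for 0 of the 18337 genes, and the adjusted p of the 10 ran from 0.251 to 0.772. At an unadjusted p under 0.05 there were 5 (Tspan8, Igf2bp3, Epcam, Akr1b8 and Anxa5), where 11.8% of all genes passed. All of these but Anxa5 passed the level for a test only through the Nemo-deleted groups, so they are no support for a count. The largest were 1.66 ± 0.64 for Anxa5 and 1.30 ± 0.26 for Tspan8, and the smallest were 0.20 ± 0.23 for Afp and 0.39 ± 0.29 for Golm1. Both the double KO and the wildtype arrays enter this value, and for Robo1 it was -0.54 without wildtype replicate 2. Calls over all genes numbered 230 without wildtype replicate 1, 88 without wildtype replicate 2 and 7 without double KO replicate 1, with 0 of the 10 genes among them.

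**Figure D3:**
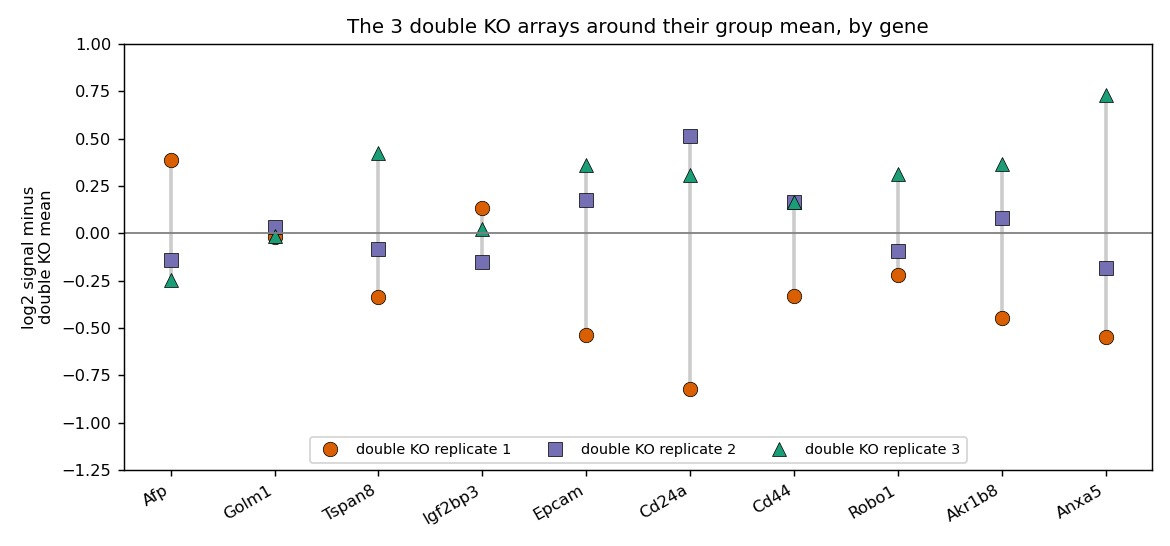
Log2 signal of each gene on the 3 double KO arrays, as the difference from the double KO mean (vertical axis). Replicate 1 is the lowest of the 3 for 8 genes and the highest for Afp and Igf2bp3, and the 3 arrays nearly coincide for Golm1.

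The double KO arrays differed in the same direction for most of the 10 genes. Replicate 1 was the lowest of the 3 arrays for 8 of the 10 and the highest for Afp and Igf2bp3, while replicate 3 was the highest for 5. The share of all genes with their lowest value on replicate 1 was not counted, so these ranks are a description. The SD ran from 0.03 for Golm1 to 0.72 for Cd24a (n = 3). Over the 11 arrays the 45 pairs of genes had Pearson correlations of log2 signal between 0.39 and 0.97 with a median of 0.80, to which the differences between the 4 groups contribute. After each of the 4 group means was taken out, the correlations ran from -0.94 to 0.93 with a median of 0.28, and 16 of the 45 were below 0. The lowest was that of Afp with Epcam (-0.94). These are descriptions of 11 arrays.

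Cell cycle genes also differed between the double KO arrays. The mean log2 signal of 22 cell cycle genes was 6.58, 7.33 and 8.47 in double KO replicates 1 to 3 and 6.54 to 6.84 in Nemo KO, against 5.88 to 6.0 in Cxcr6 KO and 5.79 and 7.67 in wildtype replicates 1 and 2. Wildtype replicate 2 thus had the second highest value of all 11 arrays. Of the 10 markers, it was the higher of the 2 wildtype arrays for 6 and the lower for 4. The mean of the 10 was 6.26 on wildtype replicate 1 and 6.74 on replicate 2. Of the 22 genes, 20 had a higher mean in double KO than in Cxcr6 KO. The median difference of the 22 was 1.49, against -0.06 over all genes. Only 1 was called, the cytokinesis factor gene Ect2, which was higher (3.07 ± 0.77, adjusted p = 0.047), where 3.44% of all genes were called higher. Mki67 differed by 4.65 ± 1.35 (adjusted p = 0.0648). On the average Nemo effect 21 of the 22 differences were above 0 and 0 were called higher. There 1 was called lower, Pcna (-0.48 ± 0.10, adjusted p = 0.0165), where 4.84% of all genes rose and 15.4% fell. The part of proliferation in the markers' differences was not tested.

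Further tumour and oncofetal genes were looked up in a list of 30, of which 17 could be tested. In double KO against Cxcr6 KO 5 of the 17 rose and 0 fell (median 0.65), where 3.44% of all genes rose. On the average Nemo effect 7 rose and 0 fell, where 4.84% of all genes rose. The largest was Ly6d, a surface protein of epithelial and lymphoid cells, with means of 14.77 in double KO and 13.10 in Nemo KO, against 5.12 in Cxcr6 KO and 5.21 in wildtype. Ly6d passed the level for a test only through the Nemo-deleted groups, so its calls are no support for a count. It was the only gene of the 17 that rose in Nemo KO against wildtype (7.89 ± 0.78, adjusted p = 0.0246). Anxa2, another annexin, rose by 2.54 ± 0.48 in double KO against Cxcr6 KO (adjusted p = 0.0217), and Vim, the intermediate filament of mesenchymal cells, by 1.56 ± 0.26 (adjusted p = 0.0163). Akr1c18, an aldo-keto reductase that acts on steroids, rose by 1.61 ± 0.23 there (adjusted p = 0.0113) and by 2.31 ± 0.23 in double KO against Nemo KO (adjusted p = 0.00626). Gpc3, a classic liver cancer antigen, stayed between 4.35 and 4.59 on all arrays, under the level for a test.

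Of 11 tested genes next to Afp or known to control it, 1 fell and 0 rose in double KO against Cxcr6 KO, where 3.96% of all genes fell: Cebpa, a factor of mature hepatocytes (-1.57 ± 0.39, adjusted p = 0.0453). On the average Nemo effect Cebpa (-1.30 ± 0.29, adjusted p = 0.018), Hnf4a, the main identity factor of hepatocytes (-0.57 ± 0.14, adjusted p = 0.0217), and Nr5a2 (-0.43 ± 0.12, adjusted p = 0.0346) fell, where 15.4% of all genes fell. In double KO against Nemo KO 0 of the 11 were called. Zhx2, a repressor of Afp after birth in mice, had means of 7.59 in double KO and 7.49 in Nemo KO, against 7.59 in Cxcr6 KO and 7.72 in wildtype. Its Nemo KO arrays all lay below both wildtype arrays, a difference that was not called (-0.23 ± 0.12, adjusted p = 0.266).

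Relatives of the 10 genes were looked up as well. Of 16 paralogs tested, 4 rose and 0 fell in double KO against Cxcr6 KO (median 0.33): the annexins Anxa13 (0.60 ± 0.09, adjusted p = 0.0137) and Anxa3 (1.14 ± 0.25, adjusted p = 0.0312) and the tetraspanins Cd151 (1.25 ± 0.26, adjusted p = 0.0293) and Cd63 (1.42 ± 0.33, adjusted p = 0.0381). There 3.44% of all genes rose, and Anxa3 passed the level for a test only through the Nemo-deleted groups. On the average Nemo effect 5 rose and 2 fell, where 4.84% of all genes rose and 15.4% fell. Anxa4 was among those that fell (-0.50 ± 0.09, adjusted p = 0.00997). Of 10 partner genes of the surface markers, Msn, which links Cd44 to actin, rose by 1.34 ± 0.26 (adjusted p = 0.0238) and Srgap2, of a family that acts downstream of Robo receptors, by 0.82 ± 0.16 (adjusted p = 0.0235) in double KO against Cxcr6 KO. Rdx, a close relative of Msn, fell by 0.61 ± 0.10 (adjusted p = 0.017).

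**Figure D4:**
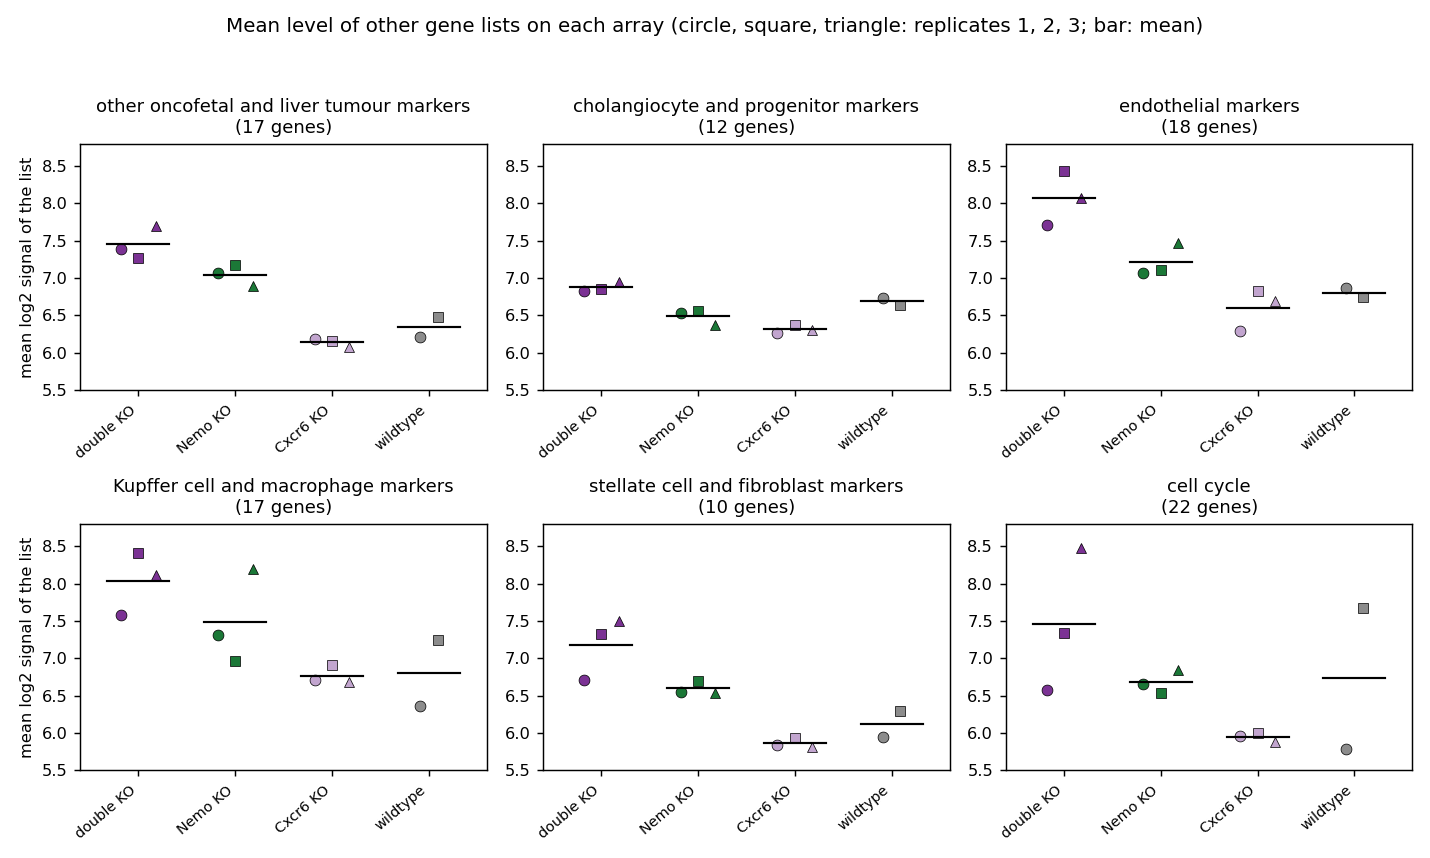
Mean log2 signal of 6 gene lists on each array (vertical axis, a common scale from 5.5 to 8.8), for double KO, Nemo KO, Cxcr6 KO and wildtype. Symbols mark replicates 1, 2 and 3 and bars are group means. Double KO has the highest mean in each panel, and wildtype replicate 2 stands high for cell cycle genes.

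Markers of other liver cells moved in the same comparisons. Of all genes 3.44% rose and 3.96% fell in double KO against Cxcr6 KO. Of 18 endothelial markers 14 rose and 0 fell in double KO against Cxcr6 KO (median 1.39), and the mean of the list lay between 7.71 and 8.43 in double KO and between 7.07 and 7.47 in Nemo KO, against 6.29 to 6.83 in Cxcr6 KO and 6.75 to 6.87 in wildtype. Of 17 Kupffer cell and macrophage markers 6 rose and 0 fell (median 1.16), with list means of 7.58 to 8.41 in double KO and 6.96 to 8.20 in Nemo KO, against 6.69 to 6.91 in Cxcr6 KO and 6.36 to 7.25 in wildtype. Of 10 stellate cell and fibroblast markers 7 rose and 0 fell (median 0.97), with list means of 6.72 to 7.50 in double KO and 6.54 to 6.70 in Nemo KO, against 5.82 to 5.93 in Cxcr6 KO and 5.95 to 6.30 in wildtype. Double KO replicate 1 had the lowest mean of its group for all 3 lists. Their part in the results for the 10 genes was not tested.

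Cholangiocyte and progenitor markers bear on Epcam and Cd24a. Of 18 listed genes 12 were tested, and 3 rose and 0 fell in double KO against Cxcr6 KO (median 0.53): Pdgfd (1.08 ± 0.13, adjusted p = 0.00839), Pkhd1, the gene of fibrocystin in bile duct cilia (1.33 ± 0.20, adjusted p = 0.0129), and Bicc1 (0.96 ± 0.17, adjusted p = 0.019). In that comparison 3.44% of all genes rose, and Pdgfd passed the level for a test only through double KO. The list mean was 6.83 to 6.95 in double KO and 6.37 to 6.57 in Nemo KO, against 6.27 to 6.37 in Cxcr6 KO and 6.63 to 6.74 in wildtype. The defining keratin genes stayed low: Krt19 lay between 4.86 and 5.22 and Krt7 between 5.47 and 5.72 on all arrays, and the bile duct chloride channel gene Cftr lay between 4.64 and 4.79. Sox9 was 7.29, 7.03 and 9.50 in double KO and 7.48, 6.59 and 6.73 in Nemo KO, against 6.47, 7.06 and 7.08 in Cxcr6 KO and 7.07 and 7.21 in wildtype, so that only double KO replicate 3 stood apart.

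For Cd44, the leukocyte gene Ptprc (CD45) had means of 6.54 in double KO and 6.32 in Nemo KO, against 5.83 in Cxcr6 KO and 5.91 in wildtype, and was called on the average Nemo effect (0.56 ± 0.14, adjusted p = 0.0253). Of 17 listed markers of T, NK, NKT and B cells only 5 could be tested, and the T cell gene Cd3e lay between 4.35 and 4.79 on all arrays. Neither these 5 nor 4 neutrophil markers gave a call in double KO against Cxcr6 KO. Of 12 hepatocyte markers 0 were called there, and their median was -0.03. The mean of these 12 was 17.94 to 18.15 on all arrays, where the highest value in the table was 19.93. A flat median of such bright rows is no measure of hepatocyte content. On the average Nemo effect Ptprc was the 1 call among the 5, where 4.84% of all genes rose and 15.4% fell. Of the hepatocyte markers G6pc, of glucose release, rose (0.58 ± 0.13, adjusted p = 0.0191) and Hnf4a and Cyp2e1 fell (Cyp2e1 by 0.30 ± 0.08, adjusted p = 0.0285).

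Likeness was measured as Pearson's r of log2 signal over the 11 arrays, where the 4 group means carry much of each value, and the closest genes outside the 10 are given as a description. Golm1 was most like Ly6d (r = 0.984) and Sgce (0.982), and Afp most like Slc31a2 (0.943) and Fam81a (0.923). Tspan8 was closest to Abcc9 (0.988) and Stk10 (0.987), Igf2bp3 to Serpinb6a (0.961) and Casp12 (0.955), and Epcam to Il1a (0.992) and Rcn1 (0.990). Cd24a was closest to Pxdn (0.976) and Man1c1 (0.967), and Cd44 to Cxcl16 (0.983), the ligand of Cxcr6, and Sirpa (0.982). Robo1 was closest to Ifi27l2b (0.985) and Pros1 (0.981), Akr1b8 to C1qtnf1 (0.973) and Plcb4 (0.972), and Anxa5 to Abcg1 (0.977) and Ppl (0.974).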

How the data were processed

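Biotin-labelled cDNA was made from 300 ng of RNA, per the labels' protocols. Affymetrix Expression Console, RMA and Transcriptome Analysis Console are named by the submitters' processing notes. The authors deposited log2 signals in a table of 65956 rows and 11 arrays. RMA corrects background, normalizes quantiles and summarises probes. The build behind the rows was not used here. Of the rows, 30604 had 1 gene symbol, 2146 several and 33206 none, and only the first were named. Symbols were updated by gene ID to RefSeq (GRCm38.p6, 22818 rows matched). Per gene the row with the highest mean was kept, which gave 30142 genes, of which 18337 were tested.

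A single limma 3.58.1 fit (lmFit, eBayes; R 4.3.3) covered the 4 groups, with a mean per group, no other term and 7 residual degrees of freedom. Tests were two-sided, p-values were Benjamini-Hochberg adjusted over all genes tested, and 5% was the threshold. All groups share 1 variance per gene, so where wildtype arrays spread more, errors against wildtype can be too small. The fit was tested on simulated data. Alternatives were median centring, quantile normalization, no filter, a trended robust prior, array weights, fits of the compared groups alone, a replicate block, the mean of a gene's rows and leaving out each array. Groups share replicate numbers, but the correlation of deviations from group means exceeded 0.1 in only 6 of 15 same-numbered pairs (-0.27 to 0.28), so the numbers were not taken to pair arrays. Named genes were the 10 markers, up to 4 called genes with the smallest p of each list in a comparison, Mki67, and the 2 genes most like each marker, leaving out predicted models and small RNAs. Gpc3, Zhx2, Sox9, Krt7, Krt19, Cftr, Cd3e, Ptprc, Alb, Ikbkg and Cxcr6 were named for their known roles. The 10 markers and the lists were chosen with earlier results of these data known. Proteins were not analysed here.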

Additional observations from a re-analysis of the deposited data

Results flagged for a closer look

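For 4 of the 10 genes, every double KO array lay above the Nemo KO mean while every Cxcr6 KO array lay below the wildtype mean, so that the 2 contrasts of Cxcr6 status, which are also contrasts of mouse line, had opposite signs. The difference between these contrasts was 1.30 on the log2 scale for Tspan8, 0.75 for Epcam, 0.58 for Robo1 and 0.39 for Golm1. The share of all genes with this pattern was not counted, so the 4 genes are a description. Tspan8 and Epcam passed the level for a test only through the Nemo-deleted groups. For Golm1 the sign of the first contrast turned without Nemo KO replicate 3 (-0.037) and that of the second without wildtype replicate 2 (0.012), and for Robo1 that of the second turned without wildtype replicate 2 (0.76). The test of that difference is the interaction, and limma's adjusted p was 0.251 for Tspan8, 0.371 for Epcam, 0.772 for Robo1 and 0.599 for Golm1. For Robo1 the margin was small, since the nearest double KO array exceeded the Nemo KO mean by 0.0017 and the nearest Cxcr6 KO array was 0.015 under the wildtype mean (a difference of -0.015).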

How the results depend on the processing

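Of the recomputed counts of called markers, 91 stayed within 1.5 times the first value and 21 did not. For double KO against Cxcr6 KO (9 called), leaving out an array gave 3 to 9. For the average Nemo effect (9 called) it gave 6 to 10. For Nemo KO against wildtype (0 called) it gave 0 to 2, and centring each array on its median gave 1. For double KO against Nemo KO (2 called) it gave 0 to 4, while no filter on dim rows gave 1, array weights 5, only the 2 groups compared 0, and the replicate block 0 (Tspan8 at adjusted p = 0.0585, Igf2bp3 at 0.0512). The replicate block moved no other count past 1.5 times. The interaction, and Cxcr6 KO against wildtype, gave 0 called markers in every fit run. The cause of these changes was not tested.

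Of the recomputed values of single genes 14 changed sign, none of them called. The replicate block turned Cxcr6 KO against wildtype to -0.0088 for Akr1b8 and -0.10 for Anxa5. The other 12 came from leaving out an array, which in that comparison gave -0.036 to 0.22 for Afp, -0.42 to 0.012 for Golm1, -0.12 to 0.13 for Cd24a, -0.46 to 0.011 for Cd44, -1.48 to 0.76 for Robo1, -0.092 to 0.19 for Akr1b8 and -0.76 to 0.91 for Anxa5. It gave -0.25 to 1.42 for Anxa5 in Nemo KO against wildtype, -0.037 to 0.39 for Golm1 in double KO against Nemo KO and -0.54 to 1.70 for Robo1 in the interaction.

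Calls over all genes moved more. For double KO against Cxcr6 KO (631 higher, 727 lower), median centring gave 657 and 462, array weights 4692 calls and the 2 groups alone 2766. For Nemo KO against wildtype (9 and 20), median centring gave 89 and 1230, quantile normalization 6 and 5, the trended robust prior 11 calls, no filter 7, and array weights, the 2 groups alone and the replicate block 0. For double KO against Nemo KO (67 and 42), median centring gave 174 and 27, quantile normalization 66 and 22, array weights 971 calls, the replicate block 61 and the 2 groups alone 11. For Cxcr6 KO against wildtype (32 and 15), quantile normalization gave 36 and 9, median centring 28 calls, no filter 24, the replicate block 24, array weights 16 and the 2 groups alone 0. Leaving out an array gave 116 to 2352 calls for double KO against Cxcr6 KO, 0 to 2369 for Nemo KO against wildtype (1023 without Nemo KO replicate 3, 184 without wildtype replicate 1 and 2369 without wildtype replicate 2), 1369 to 5026 for the average Nemo effect (1369 without wildtype replicate 1 and 5026 without wildtype replicate 2), 19 to 161 for double KO against Nemo KO, 8 to 486 for Cxcr6 KO against wildtype (486 without wildtype replicate 1 and 357 without wildtype replicate 2) and 0 to 230 for the interaction. Signals near 5.27 limit what can be read for Tspan8, Igf2bp3, Epcam and Akr1b8 without Nemo deletion.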
